A study of Homo sapiens with 4 samples.

Results

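The regions described here are cohesin peaks without CTCF inside genes, drawn from SMC1 HiChIP of the lymphoblastoid cell line (LCL) HG00731. A member is an SMC1 peak on chromosomes 1 to 22 that overlaps no CTCF peak by even 1 bp, lies over 1 kb from every annotated transcript start, and has its summit in the body of a protein-coding gene. Of 94628 SMC1 peaks, 23496 met these conditions, a share of 24.8% (24.6 to 25.1, Wilson interval at 95%). The members were thus chosen by the SMC1 and CTCF peak calls themselves, so their SMC1 values and the lack of a CTCF peak are a description and carry no test.

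HG00731 is an established line of B cells immortalised with Epstein-Barr virus, and both targets were measured in it without any treatment or genotype contrast. SMC1 HiChIP used sequential fixation with formaldehyde and EGS (FA-EGS), whereas CTCF HiChIP used formaldehyde alone (FA), so target and fixation cannot be told apart. The study also reports fewer reads for CTCF than for SMC1 in this line. A missing CTCF peak is therefore not a lack of CTCF seen at equal depth. HiChIP cuts fixed chromatin at a restriction site, here that of DpnII, ligates ends that lie close together and enriches for the protein of interest, so the same reads give both peaks and contacts. Each target had 2 replicates, which the authors merged before calling peaks and loops. 1 peak list and 1 loop list per target are therefore the whole of the data, the lists do not hold the spread between replicates, and no test between groups could be made. The intervals given below cover counting error only, and the read depth behind each peak is not part of the lists.

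Cohesin is a ring-shaped complex, with SMC1 as a core subunit, that holds DNA and extrudes loops. CTCF is a zinc finger protein that stops cohesin at its motif, and most strong cohesin peaks are sites of this kind. Cohesin also sits at active promoters and enhancers without CTCF, where it is loaded or slowed, and many enhancers of a cell type lie in introns. In B cells such enhancers are bound by PU.1, other ETS factors, RUNX, IRF, AP-1, EBF1 and the octamer factors OCT1 and OCT2.

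Of 8 B cell marker genes, 8 had an SMC1 peak within 1 kb of a start, against 3 of 8 T cell markers and 3 of 8 myeloid markers. Of all 19111 protein-coding genes, 12817 had such a peak, so the B cell count is not far above that of all genes. The loop lists went against their labels. MAPS, the loop caller, keeps pairs of 5 kb bins with a peak of the target in at least 1 of them. In the list labelled SMC1, 27785 of 27785 loops on chromosomes 1 to 22 had a CTCF peak at an anchor, and 11 had no SMC1 peak at either. In the list labelled CTCF, 79406 of 79406 loops had an SMC1 peak at an anchor, and 3654 had no CTCF peak at either. The total of each list is also the one that the study gives for the other target. By anchors and totals, the list labelled SMC1 is thus the one made with CTCF and the reverse. Both are given side by side under the labels they carry in the files, and each share at an anchor below should be read with this exchange in mind.

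Sequences at the summits are shown first, because they are the base of the motif counts that follow. Each line holds the 50 bp on either side of the summit of the member with the highest -log10 q-value in the gene, on the + strand of hg38. Capitals mark words of B cell factors or of the CTCF core, spelled out further on. These are the B lineage genes with the most members, where ETS1 and PRKCB tied with TRAF3 at 14 members each but are not shown.
EBF1, chr5:159011385-159011485: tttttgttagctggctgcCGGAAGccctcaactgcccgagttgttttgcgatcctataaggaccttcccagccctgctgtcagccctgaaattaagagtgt
RUNX1, chr21:34865248-34865348: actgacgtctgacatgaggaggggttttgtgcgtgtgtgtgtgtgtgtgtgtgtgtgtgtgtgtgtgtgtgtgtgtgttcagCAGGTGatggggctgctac
FOXP1, chr3:71443945-71444045: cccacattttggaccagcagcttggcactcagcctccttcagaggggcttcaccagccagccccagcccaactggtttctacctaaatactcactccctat
VAV2, chr9:133945517-133945617: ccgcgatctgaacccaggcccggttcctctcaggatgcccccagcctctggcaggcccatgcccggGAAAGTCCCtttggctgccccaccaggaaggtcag
PAX5, chr9:36994141-36994241: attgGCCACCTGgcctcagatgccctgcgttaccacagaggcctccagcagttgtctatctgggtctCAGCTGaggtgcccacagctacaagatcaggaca
MEF2C, chr5:88734208-88734308: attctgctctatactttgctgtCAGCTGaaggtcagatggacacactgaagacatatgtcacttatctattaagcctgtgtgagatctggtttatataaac
ARHGAP24, chr4:85557296-85557396: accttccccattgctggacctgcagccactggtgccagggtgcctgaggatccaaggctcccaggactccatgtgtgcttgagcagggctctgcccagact
TRAF3, chr14:102818555-102818655: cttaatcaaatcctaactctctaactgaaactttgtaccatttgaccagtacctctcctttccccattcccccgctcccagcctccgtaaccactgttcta

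All 8 summits lay in introns of the canonical transcript. The EBF1 window held an ETS word 32 bp before the summit, and the VAV2 window an NF-kappaB word beginning 16 bp after it. The PAX5 window held a CTCF core word 46 bp before the summit, and its peak ended 774 bp from the nearest CTCF peak. The windows of FOXP1, ARHGAP24 and TRAF3 held none of the words. The site that DpnII cuts, GATC, stood in 5 of the 8 windows, and in EBF1 and ARHGAP24 it spanned the summit base.

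3 further windows show words that were denser at the summits of the members than beside them. They were chosen after the counts were seen, as the members with the highest -log10 q-value outside UTRs that hold the word in the printed bases.
TNFAIP8, PU.1 word, chr5:119290392-119290492: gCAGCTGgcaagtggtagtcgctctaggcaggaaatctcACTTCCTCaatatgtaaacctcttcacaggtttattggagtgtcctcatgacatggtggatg
PIP4K2A, RUNX word, chr10:22606394-22606494: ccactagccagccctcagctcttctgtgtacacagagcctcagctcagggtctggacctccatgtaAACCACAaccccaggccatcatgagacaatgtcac
PREX1, AP-1 word, chr20:48739010-48739110: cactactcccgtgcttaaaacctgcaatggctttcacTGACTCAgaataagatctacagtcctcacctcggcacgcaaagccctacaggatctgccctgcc

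The TNFAIP8 member, in the gene of a TNF-induced regulator of apoptosis, had a fold enrichment of 6.60 and a -log10 q-value of 115.6. The PIP4K2A member, in the third intron of a phosphoinositide kinase gene, had a fold enrichment of 4.83 and a -log10 q-value of 110.2. The PREX1 gene, which encodes a Rac exchange factor, gave the other window, with a -log10 q-value of 126.4 in the third intron.

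The members were weak and narrow peaks. Their median fold enrichment, the summit signal divided by the background around it, was 2.67 (2.67 to 2.68, from the ranks), with quartiles of 2.36 and 3.15 and a range from 1.37 to 9.34. SMC1 peaks without CTCF between genes, of which there were 15103, had a median of 2.76 (2.76 to 2.76). The 15911 SMC1 peaks with CTCF inside genes, in the same gene territory, had a median of 4.43 (4.39 to 4.47), and all SMC1 peaks 3.31. The members were below the peaks with CTCF on 22 of 22 chromosomes and below the peaks between genes on 19 of 22.

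The -log10 q-value, the corrected significance of a peak over its background, had a median of 6.68 in the members, 6.98 between genes and 29.7 with CTCF inside genes. It reached 10 in 7123 members (30.3%) and 50 in 297 (1.26%), against 5212 of the peaks with CTCF inside genes (32.8%). The median width was 452 bp in the members, 452 bp between genes and 916 bp with CTCF. A wider peak can overlap a CTCF peak more easily, so the gap in width to the peaks with CTCF follows in part from the rule. At transcript starts, the 11519 SMC1 peaks without CTCF had a median fold enrichment of 2.95, a -log10 q-value of 10.6 and a width of 543 bp.

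**Figure D1:**
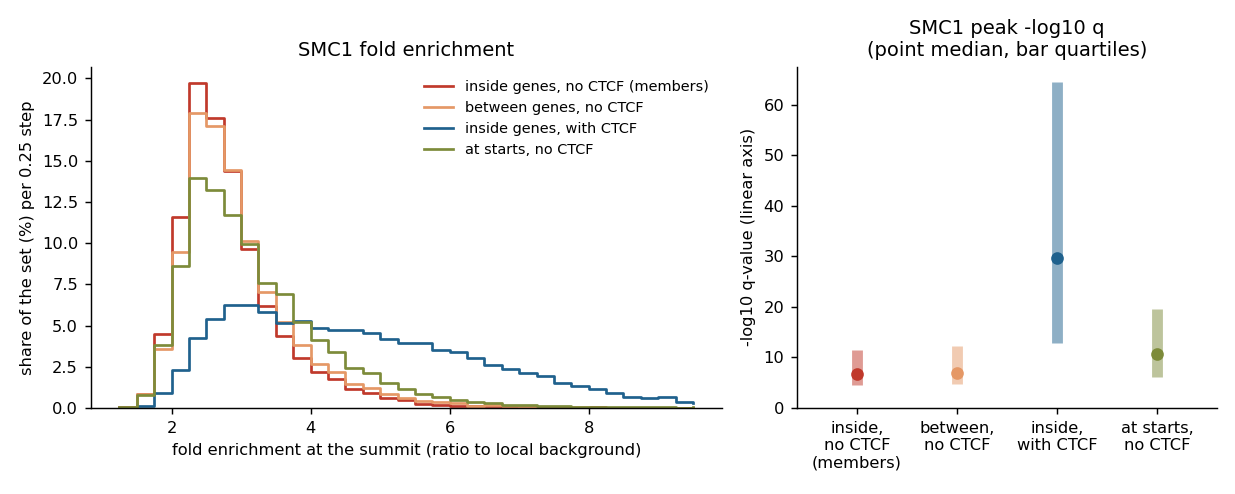
Left, share of each set of SMC1 peaks (vertical axis, %) by fold enrichment at the summit (horizontal axis, ratio, in steps of 0.25, peaks above 9.75 not drawn). Right, median (point) and quartiles (bar) of the -log10 q-value. The members follow the peaks between genes, with medians of 2.67 and 2.76, and the peaks with CTCF inside genes extend to higher values around a median of 4.43.

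Peaks on both sides of the limits of the rule had like values. The 636 members up to 200 bp beyond the 1 kb limit had a median fold enrichment of 2.60 and a -log10 q-value of 6.66, and the 758 peaks up to 200 bp short of it had 2.63 and 7.14. The 165 members within 200 bp of a CTCF peak had 2.57 and 5.70, and the 183 peaks kept out by an overlap of 1 to 100 bp had 2.50 and 5.24. Such cases were few, as the median distance from a member to the nearest CTCF peak was 9316 bp, with quartiles of 3538.5 and 19281.5 bp. The median distance from the summit to the nearest transcript start was 8956.5 bp.

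Of the 10 members with the highest -log10 q-value, 8 lay in introns of the canonical transcript. The highest, at 185.6, lay in the third intron of ETS1 (chr11:128551420-128552607), the gene of an ETS factor of lymphocytes, with a fold enrichment of 6.25 and 25910 bp to the nearest start. It was an anchor of 2 loops in the list labelled SMC1 and of 7 in that labelled CTCF. CHL1, a neural cell adhesion gene, followed with 181.2 (fold enrichment 6.47), in its second intron. INSR, the insulin receptor gene, had 171.0 (7.33) in its second intron, with a CTCF peak 488 bp away. DNAJC8, a co-chaperone gene, had 140.5 (6.83) at a summit that some transcripts place in a UTR. The others among the highest 10 lay in RNLS, PREX1, FNBP1, SMAD3, PPCDC and RPS6KA2, with -log10 q-values from 117.3 to 138.2. The RNLS member was the most connected of the 10, with 4 and 21 loops in the lists labelled SMC1 and CTCF.

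The summits of the members were concentrated on DpnII sites. Of the members, 35.7% (35.1 to 36.3) had the summit within 10 bp of a GATC, beside 5.08% of points 1 kb away from the same summits and 32.5% of all SMC1 peaks. The share was 34.6% between genes, 23.8% (23.2 to 24.5) with CTCF inside genes and 43.7% at starts. Cutting the members into 4 groups of equal size by -log10 q-value, it was 29.3%, 35.8%, 39.9% and 37.8% from the weakest group to the strongest. A GATC stood within 100 bp of the summit in 72.5% of the members, in 76.5% of all SMC1 peaks and in 37.6% of windows 1 kb away. The part that this cutting site plays in where peaks were called was not tested. The words and the density in B lineage genes are given below without the members at such sites as well.

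Words of known factors were then counted on both strands within 100 bp of the summit and in windows of the same size 1 kb to each side. The CTCF core was searched as CAGGGGGC, CAGGTGGC, CAGATGGC, CAGAGGGC, TAGGGGGC, TAGGTGGC, TAGATGGC or TAGAGGGC. PU.1 was searched as GAGGAAGT, ETS as CGGAAG, ETS-IRF as GGAANNGAA, IRF as GAAANNGAA, RUNX as TGTGGTT and AP-1 as TGANTCA. The NF-kappaB word was GGGACTTTC or GGGAATTTC, the E-box CAGCTG or CACCTG, the EBF word CCCNNGGG and the octamer ATGCAAAT. Some overlap: CAGGTGGC of the CTCF core holds the E-box, and a GAGGAAGT followed by GAA also matches ETS-IRF. A match is a run of letters and not a bound site.

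The CTCF core word stood slightly above the surrounding sequence in the members. It was found in 5.18% (4.90 to 5.47) of their windows, in 4.65% of the windows 1 kb away and in 11.1% of all SMC1 peaks, and its share was above that of the windows away on 17 of 22 chromosomes. With CTCF inside genes it stood in 17.5% (16.9 to 18.1), beside 5.09% in the windows away. The members were lower on 22 of 22 chromosomes, which follows in part from the rule, since the CTCF peaks chose both sets. Between genes the share was 5.36%.

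PU.1, a master factor of myeloid and B cells, had the word with the highest ratio to the surrounding sequence of all those counted. It stood in 558 of the members, 2.37% (2.19 to 2.58), against 1.05% in the windows 1 kb away, a ratio of 2.26, and 1.85% of all SMC1 peaks. The peaks with CTCF inside genes had 1.5% (1.32 to 1.70), and the members were above them on 21 of 22 chromosomes. The peaks without CTCF between genes were like the members, at 2.34% (2.11 to 2.60), with the members above on 12 of 22. In the members the share went from 1.52% in the weakest of the 4 groups to 3.56% (3.11 to 4.06) in the strongest.

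The RUNX word, that of RUNX1 and RUNX3 in lymphocytes, stood in 6.21% (5.91 to 6.53) of the members, in 3.68% of the windows away and in 5.05% of all SMC1 peaks. It was above the 4.68% (4.36 to 5.02) of the peaks with CTCF inside genes, whose own windows away had 3.46%, on 20 of 22 chromosomes. It was not above the 6.48% (6.09 to 6.88) of the peaks between genes, with the members higher on 10 of 22. From the weakest to the strongest group of the members it went from 4.58% to 8.80%. AP-1, the family of FOS and JUN, had its word in 8.88% (8.52 to 9.25) of the members against 6.14% in the windows away and 7.55% of all SMC1 peaks. Here too the peaks between genes stood higher, at 10.4% (9.94 to 10.9), and the members were above them on 5 of 22 chromosomes. The octamer, bound by OCT1 and OCT2, stood in 2.48% (2.29 to 2.69) of the members, in 1.61% of the windows away and in 1.81% of all SMC1 peaks. In the peaks with CTCF inside genes it was at 1.46% (1.29 to 1.66), beside 1.5% in the windows away, and between genes at 2.34% (2.11 to 2.60).

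The NF-kappaB word was rare, in 128 members or 0.545% (0.458 to 0.647), against 0.323% of the windows away, a ratio of 1.68, and 0.535% of all SMC1 peaks. The remaining words differed less from their surroundings. The IRF word stood in 9.47% of the members and 7.46% of the windows away (7.99% of all SMC1 peaks), and the ETS-IRF word in 6.02% and 5.05% (5.71%). The ETS word stood in 2.45% and 1.98%, below the 4.62% of all SMC1 peaks and the 7.81% of those at starts. The EBF word stood in 4.82% and 4.03% (7.45% of all SMC1 peaks). The E-box, the word of TCF3 and its relatives, stood in 24.9% and 24.0% (26.7%). The words differ in base composition and so did the windows, whose part in these shares was not tested. Their median GC content was 42.8% in the members, 44.3% between genes, 45.3% with CTCF inside genes and 50.7% at starts. In the 15110 members with the summit over 10 bp from a DpnII site, the ratios to the windows away were 2.47 for PU.1, 1.70 for RUNX, 1.48 for AP-1 and 1.55 for the octamer, and 1.11 for the CTCF core.

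**Figure D2:**
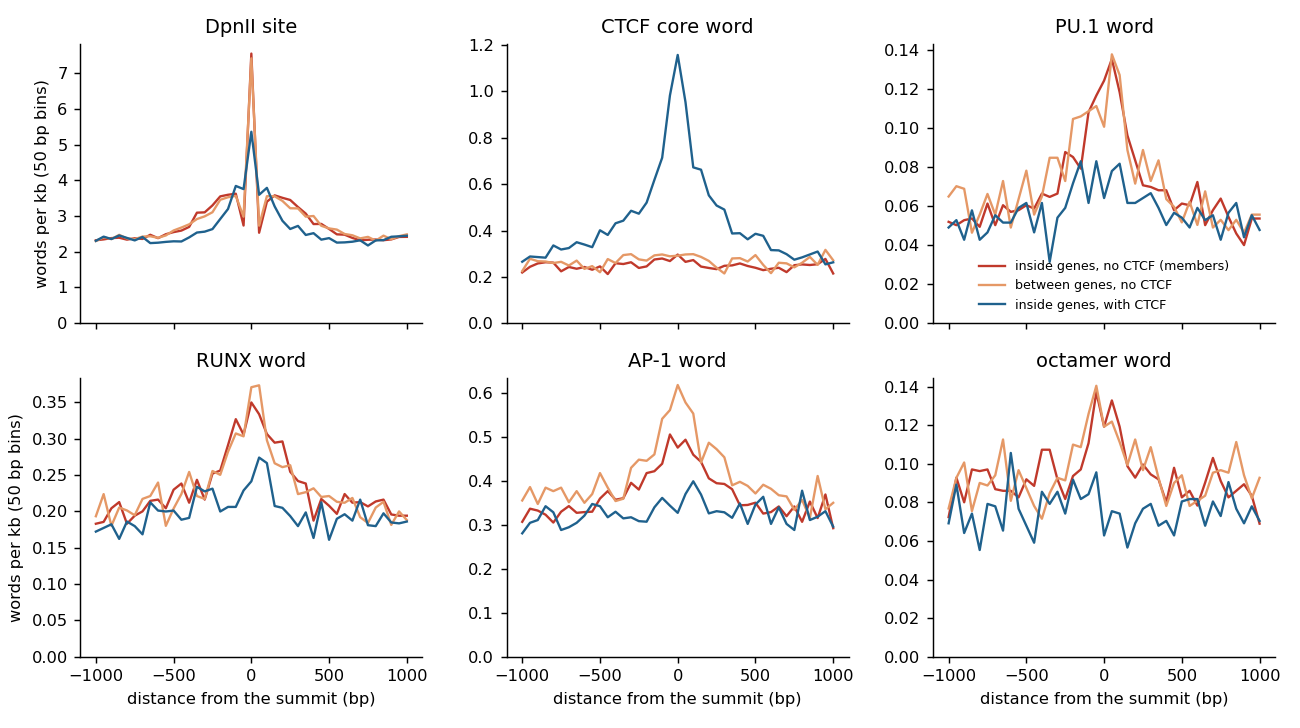
Words per kb (vertical axes, each with its own scale from 0) in bins of 50 bp by distance from the SMC1 summit (horizontal axes, bp), for the members, the peaks between genes without CTCF and the peaks inside genes with CTCF. The DpnII site has a narrow spike at the summit in all sets, the CTCF core word is far denser at the summit in the set with CTCF than in the members, and the PU.1, RUNX, AP-1 and octamer words have broad peaks in the members.

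Within genes, the members were denser in the first intron of the canonical transcript. Of the members, 26.1% (25.5 to 26.6) had the summit there, where 20.3% of the eligible bases lie, and the share was above that of the bases on 22 of 22 chromosomes. Eligible bases are the 1115 Mb of gene body over 1 kb from every start. The peaks with CTCF inside genes did not show this, with 19.1% (18.5 to 19.7) in the first intron. Later introns held 59.5% of the members and 63.6% of the bases.

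Exons held 7.28% (6.95 to 7.62) of the summits of the members and 6.09% of the eligible bases, above on 19 of 22 chromosomes, beside 9.16% of the peaks with CTCF. Of the members, 2.23% lay in coding sequence (1.96% of the bases) and 4.08% in UTRs (3.26%). The excess in exons was smaller among the members whose -log10 q-value reached 10, at 6.36%. A lncRNA gene overlapped 6.96% of the members, against 7.66% of the bases.

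Along the gene the members were spread evenly. Cutting each gene body into 10 equal parts from 5' to 3', the members came to between 1.99 and 2.24 per 100 kb of eligible body. The peaks with CTCF went from 1.29 per 100 kb in the part nearest the 5' end to 1.86 in the last. The median distance from a member to the next nearest member was 9047.5 bp between summits, with quartiles of 3235.75 and 22801.5 bp.

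**Figure D3:**
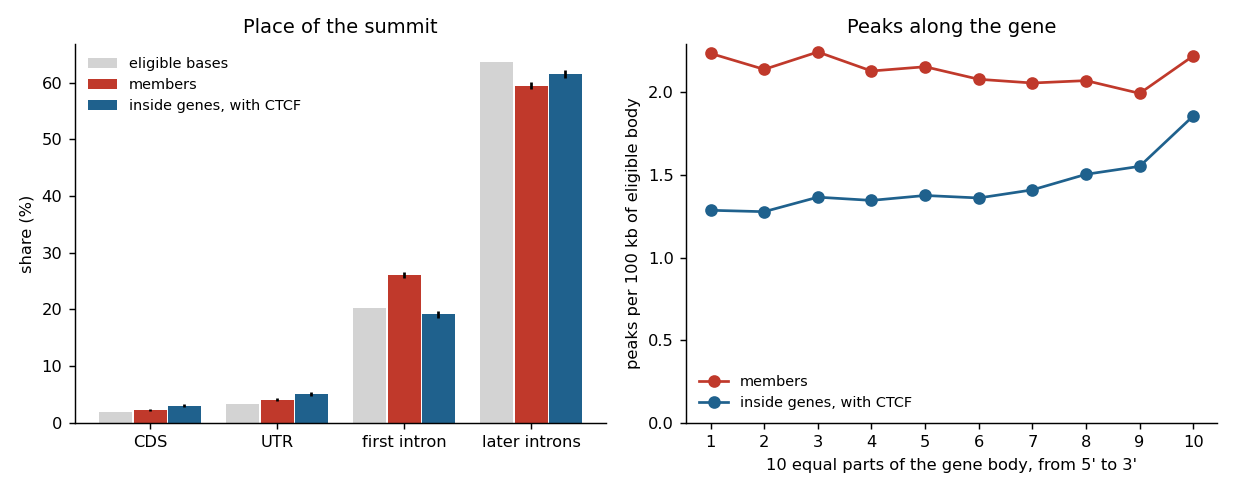
Left, share (%) of eligible gene-body bases, members and peaks with CTCF inside genes by the place of the summit, with Wilson intervals at 95% as error bars on the peaks. Right, peaks per 100 kb of eligible body (vertical axis) in 10 equal parts of the gene from 5' to 3' (horizontal axis). The members exceed the bases in the first intron, 26.1% against 20.3%, and stay between 1.99 and 2.24 per 100 kb along the gene.

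At least 1 member was found in 7041 of 19111 protein-coding genes, or 36.8%. Of these genes, 1569 held at least 5, 553 at least 10 and 119 at least 20. A member inside overlapping genes counts for each, as 6.06% of the members did. Summed over all genes there were 2.13 members per 100 kb of eligible body (2.11 to 2.16, Poisson interval). The members were denser in genes with an SMC1 peak within 1 kb of a start, at 2.68 per 100 kb over 12817 genes, than in the 6294 without, at 0.764. For peaks with CTCF the same densities were 1.60 and 1.01.

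The most members were in RAD51B, a gene of homologous recombination, with 57 over 863 kb of eligible body. CDKAL1, a tRNA-modifying enzyme gene, followed with 50, ATXN1 with 43, and HIVEP3, FOXN3 and EBF1 with 41 each. SIPA1L1, ARHGAP26, AUTS2 and TNIK had 39, 37, 36 and 35. These are long genes, and their densities ran from 3.12 per 100 kb in AUTS2 to 10.5 in EBF1. In RAD51B, the members had fold enrichments from 1.79 to 4.66 and in 21 of 57 the -log10 q-value reached 10.

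Among genes with at least 8 members, the densest were shorter than those with the most members. RHOQ, a small GTPase gene, had 22.3 members per 100 kb and TMEM154 had 20.2, with 8 and 11 members. CD82, a tetraspanin gene, had 19.6, FMNL3 18.5 and PDCD1LG2, which encodes the PD-1 ligand PD-L2, 18.4. TRAM2 had 18.3, CD58, which encodes the ligand of CD2, 18.2 and SEMA4D, the semaphorin CD100, 17.7. CTSC had 17.1. PDCD1LG2 and TMEM154 held 11 members each and no SMC1 peak with CTCF away from starts.

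Genes of the B lineage held more members for their length than other genes. Over a list of 49 B lineage genes, 41 held a member, and the list summed to 389 members, or 5.17 per 100 kb (4.67 to 5.71), beside 2.13 over all genes. In 39 of the 49 genes the count was above that of all genes of the same length class, and the list as a whole held 3.03 times as many as those classes give. Among genes matched both in length class and in having an SMC1 peak at a start, it held 2.43 times as many. For peaks with CTCF inside genes the last ratio was 1.67. Leaving out members at DpnII sites gave 3.24 per 100 kb over the list and 1.37 over all genes.

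The B lineage genes with the most members were led by 3 transcription factor genes. EBF1, a founding factor of the lineage, held 41 members, RUNX1 31 and FOXP1 30, in which an overlapping gene model shares members. VAV2, an exchange factor of antigen receptor signalling, held 23, and PAX5, the factor of B cell identity, 19. The EBF1 members had fold enrichments from 1.69 to 4.80, with a median of 2.53. Of these, 9 stood at an anchor in the list labelled SMC1 and 18 in that labelled CTCF. By density the list was led by IRF4, at 26.8 per 100 kb from 5 members, and SPIB, at 26.4 from 3, both short genes of B cell factors. IRF4 and SPIB fall short of the 8 members set for the density ranking and were chosen after their values were seen. No member was found in 8 genes of the list, among them CD79A, CD79B and BCL6.

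The T lineage list stood near all genes. Of its 20 genes, 12 held a member, with 42 members in all or 2.28 per 100 kb (1.65 to 3.09). RORA held 15 and CAMK4 11. CD3E, CD4, CD28 and ZAP70 held 1 each, and CD3D, CD3G and CD8A were among those with none. A member stood in 4 of the 8 T cell markers and in 4 of the 8 B cell markers. Their densities were 3.56 (0.971 to 9.12) and 9.09 (5.76 to 13.6) per 100 kb. The contrast rests on 1 gene, as PAX5 held 19 of the 23 members in the B cell markers. PAX5 also gave 187 kb of their 0.253 Mb of eligible body. The T cell markers held 4 members in all. Matched in length class and in an SMC1 peak at a start, the T lineage list held 1.2 times as many members as other genes, whereas its ratio for peaks with CTCF was 1.72. The list of 26 genes used in all cells held 108 members, 3.94 per 100 kb (3.24 to 4.76), with PDS5B and USP34 at 9 each. Its ratio after the same matching was 1.29.

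Long genes known mainly from neurons held few members for their length. Of 25 genes, 20 held a member, but the list summed to 93 over 37.3 Mb of eligible body, or 0.249 per 100 kb (0.201 to 0.305). MACROD2 alone held 34, without which the density was 0.167, and DLG2 held 12, while CNTNAP2, the gene of a neurexin family protein, held none. Peaks with CTCF were less sparse in the same genes, at 0.474 per 100 kb. After matching by length class and SMC1 at a start, the ratio was 0.351 for members and 0.676 for peaks with CTCF. All genes of the list fall in the class from 500 kb, which has no upper limit, so lengths within it were not matched. Density fell with length, from 2.21 per 100 kb in the class from 200 kb to 0.859 in that from 500 kb. Whether the order of the lists follows the expression of the genes in this line was not tested, since no RNA was measured here.

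**Figure D4:**
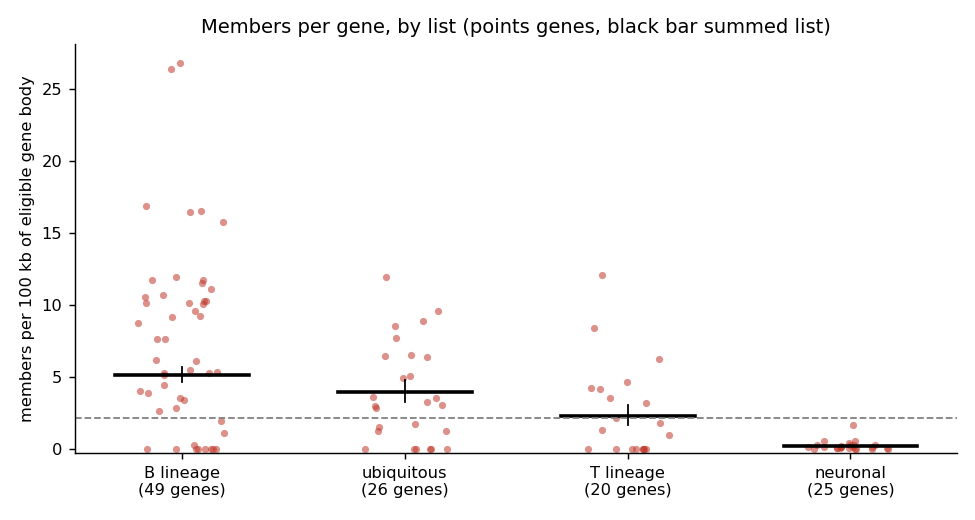
Members per 100 kb of eligible gene body (vertical axis) for each gene (points) of the B lineage, ubiquitous, T lineage and neuronal lists. Black bars give the summed list with its Poisson interval at 95% and the dashed line all protein-coding genes, 2.13; the lists stand at 5.17, 3.94, 2.28 and 0.249.

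Few members stood at a called loop anchor in the list labelled SMC1, and more in the list labelled CTCF. In the former, 2646 members or 11.3% (10.9 to 11.7) overlapped an anchor, beside 22.3% of all SMC1 peaks. In the latter, 8657 or 36.8% (36.2 to 37.5) did, beside 51.4% of all SMC1 peaks. The peaks between genes stood close to the members, at 11.4% and 35.3%, and the peaks with CTCF inside genes at 30.8% and 65.2%. The members were below the peaks with CTCF in both lists on 22 of 22 chromosomes. In the list labelled SMC1 this follows in part from the rule, as each of its loops has a CTCF peak at an anchor. Against the peaks between genes the members were above on 8 of 22 in the list labelled SMC1 and on 12 of 22 in that labelled CTCF.

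The share at an anchor moved with the strength and the width of the members. From the weakest to the strongest of the 4 groups it went from 7.27% to 17.2% in the list labelled SMC1 and from 24.7% to 55.3% in that labelled CTCF, while the median width went from 328 to 789 bp. A wider peak can touch an anchor more easily, so widths were matched. All SMC1 peaks were cut into 5 groups of equal size by width. In the widest, 15.1% of the members stood at an anchor of the list labelled SMC1, against 45.2% of the peaks with CTCF inside genes. In the narrowest group the shares were 9.57% and 17.1%. In the list labelled CTCF they were 56.5% and 84.2% in the widest group, and 29.6% and 41.4% in the narrowest. The gap in the list labelled SMC1 follows in part from the rule, as each of its loops has a CTCF peak at an anchor. An anchor is a bin of 5 kb and may hold a CTCF peak beside the member. Counting only bins without any CTCF peak left 5.97% of the members in the list labelled SMC1 and 26% in that labelled CTCF. Both are above all SMC1 peaks, which had 3.94% and 15.5%, as fewer peaks with CTCF can stand in such bins by construction.

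**Figure D5:**
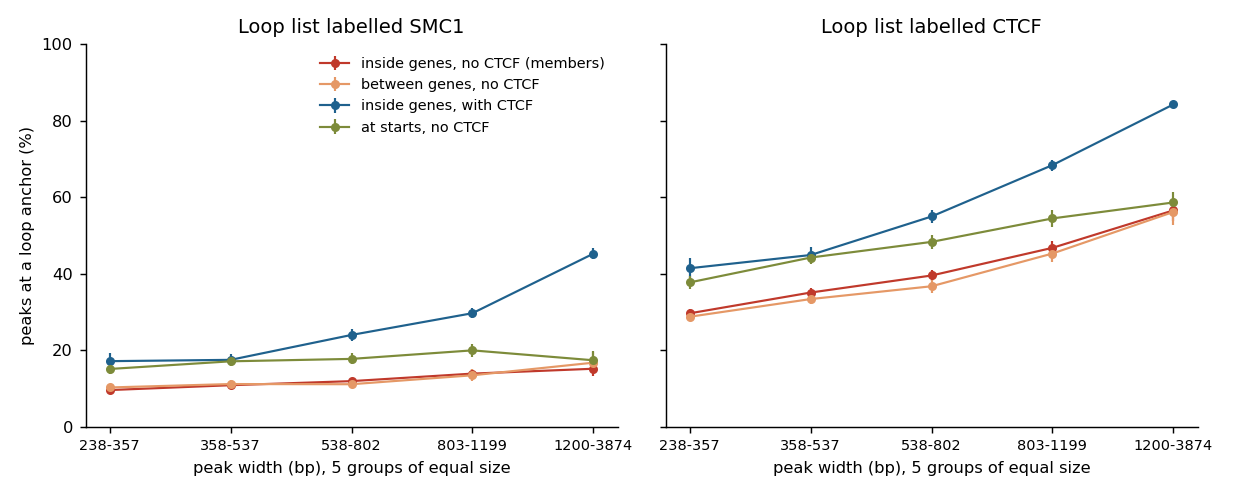
Share of peaks at a loop anchor (vertical axis, %) by peak width in 5 groups of equal size (horizontal axis, bp), with Wilson intervals at 95%, for the list labelled SMC1 (left) and CTCF (right). The members run with the peaks between genes in every width group, from 9.57% to 15.1% on the left, and lie below the peaks with CTCF inside genes.

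Loops from anchors with members only were shorter than loops from anchors with CTCF, as were those from anchors without CTCF between genes. These were anchors whose SMC1 peaks were all members, with no CTCF peak and no coding start. The list labelled CTCF held 4278 of them with 7423 loop ends, at a median span of 90 kb (quartiles 50 and 155). The 25650 loop ends at anchors whose SMC1 peaks were all shared with CTCF inside genes, again without a coding start, spanned 150 kb (85 and 255). The ratio of observed to expected read pairs was 3.03 (3.0 to 3.06) and 4.52 (4.48 to 4.56). That ratio itself moves with the span, and among loops over 100 and up to 200 kb it was 3.50 and 4.54. Anchors with only SMC1 peaks without CTCF between genes were near the members, at 100 kb (55 and 175) and 3.17 (3.13 to 3.20). Over 100 and up to 200 kb their ratio was 3.54. In the list labelled SMC1 the gap between members and anchors with CTCF was small, at 3.96 (3.88 to 4.08) and 4.22 (4.17 to 4.27). Anchors between genes had 4.15 (4.05 to 4.28) there. Over 100 and up to 200 kb, members and anchors with CTCF had 4.31 and 4.38 in that list. Over 50 and up to 100 kb the members were higher, at 3.63 and 3.46.

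The other end of these loops often held CTCF, as it did for other anchors, or the start of the gene that hosts the member. In the list labelled CTCF, 73.6% (72.6 to 74.6) of the 7423 ends had a CTCF peak in the other bin, 35.2% a coding start and 22.4% another member. For the anchors with CTCF these shares were 68.1%, 28.8% and 12.2%. For anchors with only SMC1 peaks without CTCF between genes they were 73.0%, 27.6% and 9.62%. From the member anchors, the other bin held a start of the host gene itself in 1540, or 20.7% (19.8 to 21.7). The share was 8.75% (8.41 to 9.10) for the anchors with CTCF. Of the 7423, 47.5% of the other bins had their centre within the same host gene, against 24.4%. Shorter loops reach the own gene more often. At spans up to 50 kb the host start was at the other end in 29% (27 to 31) of loops from members and 22.5% (20.9 to 24.1) of loops from anchors with CTCF. Over 100 and up to 200 kb the shares were 16.1% (14.6 to 17.7) and 7.24% (6.71 to 7.82).

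In the list labelled SMC1, 947 such anchors gave 1073 loop ends at a median span of 115 kb. The span was 120 kb at anchors without CTCF between genes and 145 kb for the 8196 ends at the anchors with CTCF. For the members, the other bin held a CTCF peak in 1073 of 1073, which follows from the CTCF peak that each loop of this list has at an anchor. It held a start of the host gene in 19.1% (16.9 to 21.6), against 8.99% for the anchors with CTCF. These shares do not rest on like partners, as only 75.2% of the other bins for the anchors with CTCF held a CTCF peak. The effect of this on the gap was not tested. At spans up to 50 kb the shares were 33% (27 to 39.6) and 26.3% (23.7 to 29.1), with overlapping intervals. Over 100 and up to 200 kb they were 15.6% (12.3 to 19.7) and 6.52% (5.66 to 7.51).

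In the strongest loops with a member at an anchor, the bin of the member mostly held a CTCF peak as well. The highest in the list labelled SMC1 had 231 read pairs (83.0 expected) and joined a member in STK11, a tumour suppressor kinase gene, with the start of that gene 10 kb away. CIRBP gave the next pair, with 215 and 211 read pairs to the bins of ATP5F1D and MIDN, and MEAK7 and RHOF followed with 198 and 180. The highest in the list labelled CTCF was at ISCU, an iron-sulfur cluster gene, with 568 read pairs (109.7 expected) over 50 kb. MEAK7 followed with 500 over 110 kb, then FGR with 471, PADI1 with 444 and VMP1 with 410. The member bin of ISCU held no CTCF peak, and those of the 9 others did. Among all anchors with a member, 49.8% held a CTCF peak in the list labelled SMC1 and 32.7% in that labelled CTCF. Of all loops, 100% and 95.4% had a CTCF peak at an anchor, so CTCF at these loops was largely given beforehand. A coding start also stood in the member bins of ISCU, CIRBP, RHOF, FGR and PADI1, but not in those of STK11, MEAK7 and VMP1.

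Loops were also ranked by read pairs where 1 anchor held only members and the other the start of the host gene. In the list labelled CTCF, IL4I1, an amino acid oxidase of B cells and myeloid cells, led with 310 read pairs (130.4 expected) over 10 kb. BCAS4 followed with 238 over 15 kb, IL2RB, the beta chain of the IL-2 receptor, with 225 over 10 kb, RAP1A with 193 and RASGRP3 with 176. Under the label SMC1, AHNAK led at a span of 10 kb, followed by MAPKBP1 with 92 read pairs over 25 kb. These loops were picked after the partner counts were seen. A member of CD82, 1 of 3 in its bin, was an anchor of a loop with 225 read pairs over 55 kb in the list labelled CTCF, and 8 of the 8 members of that gene stood at an anchor there.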

How the data were processed

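HiChIP of SMC1 (FA-EGS) and CTCF (FA) in the LCL HG00731 had 2 replicates per target, pooled before calling, so each target has 1 peak list and 1 loop list. Per the labels and the study's methods, reads were aligned to hg38, and MACS3 3.0.1 gave the peaks, down to a q-value of 0.01. For each peak, the authors deposited the position, the summit, the fold enrichment (ratio to the local background) and the -log10 of the q-value. For each loop, the count of read pairs between bins of 5 kb was deposited as observed, beside the signal that the MAPS regression expects. Their p- and q-values for loops were not used.

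The members and the gene lists were chosen with earlier results of these data known. Peak and bin positions were set against GENCODE release 44 on the hg38 sequence, and 0 peaks lay beyond a chromosome end. Overlap needed 1 bp, and distances to starts were taken from the nearer peak edge. The place of a summit came from all transcripts for exons and from the canonical transcript for introns. Words were searched on both strands of the reference, and no window from chromosome 8 was printed. Density is members per 100 kb of gene body over 1 kb from every start, and length classes were cut at 20, 50, 100, 200 and 500 kb. Shares carry Wilson intervals, medians intervals from the ranks and densities Poisson intervals, all at 95%.

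Named are the 10 members with the highest -log10 q-value, the 10 genes with the most members, the 10 densest among genes with at least 8, the leading genes of each list, and the 5 loops with the most read pairs in each list. Some genes and 1 sequence that these rules select are not reported here. Genes outside this rule are marked as chosen after their values were seen. Alternatives were a stricter q-value, a CTCF-free distance of 1 kb, other distances to starts, other windows, transcripts and loop sets, and, added after seeing the data, members away from DpnII sites. The functions were tested on simulated data. The tools were SciPy 1.17.1, Matplotlib 3.10.9, pysam 0.24.0, pandas 2.3.3 and NumPy 2.4.6 in Python 3.11.15.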

Additional observations from a re-analysis of the deposited data

How the results depend on the processing

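No paired analysis was possible because the lists pool both replicates of each target, and leaving out a replicate could not be run for the same reason. Of 49 recomputed values, 24 stayed within the interval of the reported value, or within 1.5 times of a count, and 25 moved.

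Where the -log10 q-value had to reach 10, there were 7123 members, with a median fold enrichment of 3.47, a median width of 752 bp, 16.3% at an anchor of the list labelled SMC1, 6.36% in exons, 28.4% in the first intron, 5.56% with a CTCF core word and 2.02 per 100 kb in B lineage genes. Over all genes the density was then 0.645, and the ratio of both was 3.13 beside 2.42 as reported.

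Without members within 1 kb of a CTCF peak, the median fold enrichment was 2.69, the share at an anchor 9.32% and the B lineage density 4.66. Over 2 kb from starts, the shares were 10.7% at an anchor, 6.72% in exons and 25.5% in the first intron. Leaving out summits within 10 bp of a DpnII site, chosen after seeing the data, left 15110 members, 10.3% at an anchor, 6.82% in exons and 3.24 per 100 kb in B lineage genes, a ratio to all genes of 2.37.

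The share at an anchor was 36.8% with the list labelled CTCF, 6.47% with loops of at least the median read pairs and 5.97% in bins without a CTCF peak. Canonical transcripts alone gave 5.48% in exons, where 4.51% of the eligible bases lie. Any transcript gave 50.8% in the first intron, where 44.7% of the bases lie, a ratio of 1.14 beside 1.29 for canonical transcripts. The CTCF core word stood in 2.71% of windows of 50 bp and 11.7% of windows of 250 bp on either side. The cause of these moves was not tested, apart from wider windows holding more words and smaller sets of loops fewer anchors. The ratios of the PU.1, RUNX, AP-1 and octamer words to the windows away were above 1 under the 5 alternatives to the choice of members. The depth of the libraries, which limits how weak a peak can be called, is not part of the lists. The study reports fewer reads for CTCF than for SMC1, and the effect of this on the choice of members was not tested. Fixation, pooling and the exchange of the loop labels touch every result on loops.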
